A study of Mus musculus with 9 samples.

Results

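The miRNAs of DSS-exposed mouse colon were compared with those of untreated colon, taking all 6 exposed libraries as 1 side whether or not royal jelly acid (RJA) had been given. All mice were wild-type C57BL/6J. Mice of the Normal group (3 libraries) had ordinary diet and water. Mice of the DSS group (3 libraries) drank water with 2.5% (w/v) dextran sulfate sodium, and those of the RJA group (3 libraries) drank the same DSS water and were also gavaged daily with 0.2 mL of RJA, at 10 mg/kg. The labels give no age, sex or number of days of exposure. No gavage is recorded for the Normal or DSS mice, so within the exposed side RJA and gavage cannot be told apart. Of 1155 entries in the count table, 1126 carry a mouse miRNA name, and the 433 with at least 10 reads in at least 3 of the 9 libraries were tested. Of these, 334 had at least 10 reads in all 9 libraries, 13 passed through exposed libraries alone and 1 through Normal libraries alone. The question was which miRNAs mark DSS exposure in both exposed groups.

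A miRNA is a short RNA that guides Argonaute to matching mRNAs, mainly through its seed (bases 2 to 8), and lowers their translation and stability. DSS damages the colonic epithelium, and the wounded mucosa fills with neutrophils, monocytes and lymphocytes. Some miRNAs are largely made by 1 cell type (miR-192 and miR-194 by intestinal epithelium, miR-223 by neutrophils), while others are switched on by signalling inside cells (miR-146a by NF-kB, miR-212 and miR-132 by CREB). In whole colon, fewer cells of a type and less miRNA per cell cannot be told apart.

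Libraries held 5985153 to 8280980 counts. The smooth muscle miRNA miR-143-3p took 66.4% to 75.5% of them, and the intestinal epithelial miR-192-5p was abundant in every Normal library, which is what whole colon wall holds. Levels are given as CPM (counts scaled to 1e+06 per library) after TMM scaling, which corrects each library for its composition. TMM factors were 0.867 to 0.899 in the Normal libraries and 0.892 in RJA 1, and 1.05 to 1.18 in the other 5 exposed libraries. RJA 1 stood nearer to the Normal libraries than the other exposed libraries did in many of the results below, which are therefore also given without it. The labels do not say whether the 3 samples of a group came from separate animals, so the tests gauge the spread among samples, which may be technical.

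The sequences below belong to the miRNAs that carry the comparison. They are RefSeq mature sequences (GRCm38.p6), 5′ to 3′, with the seed in capitals, and are set out so that shared seeds can be seen. The first pair lay above Normal in all 6 exposed libraries.
miR-212-3p: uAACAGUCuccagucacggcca
miR-132-3p: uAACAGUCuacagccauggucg
Both have the seed AACAGUC and lie on the plus strand of chromosome 11, Mir212 at 75173388 to 75173478 and Mir132 at 75173682 to 75173747, in an intron of the non-coding gene 1700016P03Rik. A further pair above Normal has unrelated seeds.
miR-146a-5p: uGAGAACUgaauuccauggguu
miR-214-3p: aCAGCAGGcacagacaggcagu
Mir146 lies outside other genes on the minus strand of chromosome 11 (43374397 to 43374461), and Mir214 in an exon of Dnm3os on the plus strand of chromosome 1 (162223368 to 162223477), opposite an intron of Dnm3. The next 3 share the seed GUAAACA and lay below Normal in all 6 exposed libraries.
miR-30a-5p: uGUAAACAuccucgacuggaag
miR-30c-5p: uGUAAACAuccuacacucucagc
miR-30e-5p: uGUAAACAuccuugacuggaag
Mir30e (120772606 to 120772697) and Mir30c-1 (120769534 to 120769622) share an intron of Nfyc, a subunit gene of a CCAAT-binding factor, on the minus strand of chromosome 4. Mir30a (23272269 to 23272339, outside other genes) and Mir30c-2 (23291701 to 23291784, in an exon of the lincRNA Gm27028) lie on chromosome 1. The last 3 also lay below Normal, and the first 2 of them share the seed AACACUG.
miR-141-3p: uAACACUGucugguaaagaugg
miR-200a-3p: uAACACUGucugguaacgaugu
miR-181d-5p: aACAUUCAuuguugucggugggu
Mir141 lies on chromosome 6 (124717914 to 124717985), in an intron of the antisense gene Gm15884 and an exon of Gm29008. Mir200a lies on chromosome 4 (156054896 to 156054985) in an intron of Ttll10, and Mir181d on chromosome 8 (84178716 to 84178787) in an intron of Nanos3.

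Exposed and Normal libraries did not overlap in 57 of the 433 miRNAs (13.2%). In 26 (6.00%) every exposed library lay above every Normal library, led by miR-212 and miR-132, with miR-223-3p, miR-146a-5p and both arms of miR-214. In 31 (7.16%) every exposed library lay below, among them the epithelial miR-141-3p, miR-200a-3p, miR-192, miR-194-5p and miR-205-5p, miR-148a-3p, miR-378b, miR-378c and 5 of 12 tested miR-30 entries. The log2 fold change of exposed over Normal ran from 0.28 to 2.53 in the 26 (median 0.85) and from -0.25 to -2.29 in the 31 (median -0.63), against a median of 0.03 over all 433. The change was at least 2-fold in 11 of the 26 and 10 of the 31, and mean levels reached 10 CPM in 14 of the 26 and 24 of the 31.

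No single miRNA passed the test. With edgeR's quasi-likelihood test and Benjamini-Hochberg adjustment over the 433, 0 were called higher and 0 lower (0% in each direction), and the lowest adjusted p was 0.0921, for miR-212-3p. Before adjustment, p was under 0.05 for 100 miRNAs (23.1%), of which 54 were higher (12.5%) and 46 lower (10.6%). DESeq2 called 12 higher and 7 lower, and limma-voom called 0. Of DESeq2's 19 calls, 14 were among the 57 (13.2% of all miRNAs were), which come from the same counts. The spread between exposed libraries was larger than that between Normal libraries: the median SD of log2 CPM was 0.20 over the 3 Normal, 0.36 over the 3 DSS, 0.39 over the 3 RJA and 0.44 over all 6 exposed libraries.

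**Figure D1:**
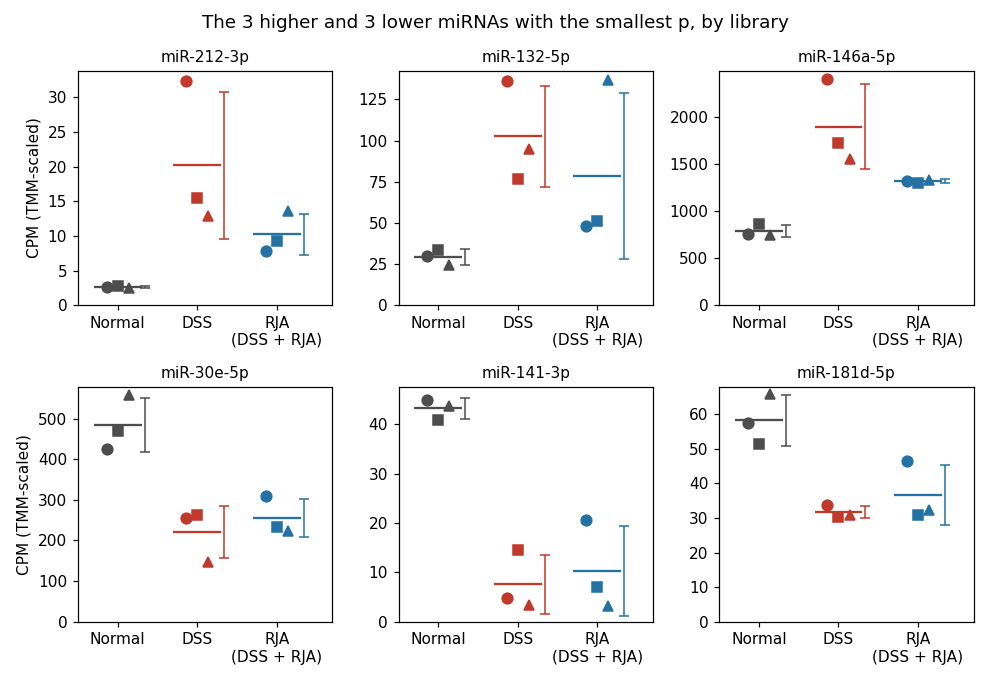
Levels (CPM after TMM scaling, linear axes from 0) of the 3 miRNAs with the smallest p in each direction, by group. Each point is 1 library (circle, square and triangle for samples 1 to 3), lines are group means and bars SD (n = 3). In every panel the 6 exposed points lie on 1 side of the 3 Normal points, and RJA 1 is the exposed library nearest to Normal in each panel but that of miR-146a-5p, where it is RJA 2.

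The clearest separation was that of the miR-212 and miR-132 cluster, whose transcription CREB drives in neurons and other stimulated cells. miR-212-3p stood at 2.61, 2.82 and 2.44 CPM in Normal, at 32.4, 15.4 and 12.9 CPM in DSS and at 7.87, 9.28 and 13.6 CPM in RJA. The lowest exposed library, RJA 1, was thus well above the highest Normal one. These levels rest on 15 to 21 reads in Normal libraries and 42 to 263 in exposed ones. For miR-212-3p the log2 fold change was 2.53 ± 0.47 (SE, 95% interval 1.51 to 3.56, adjusted p = 0.0921 with edgeR). miR-132-3p, its seed partner, stood at 23.5, 26.1 and 21.8 CPM in Normal, 162, 78.6 and 92.6 CPM in DSS and 32.4, 49.8 and 82.9 CPM in RJA. The DSS libraries were all high, and RJA 1 was the exposed library closest to Normal. Its log2 fold change was 1.81 ± 0.44 (adjusted p = 0.106 with edgeR).

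The other strands of the same hairpins went the same way. miR-132-5p stood at 30.2, 33.4 and 24.4 CPM in Normal, 136, 76.6 and 95.1 CPM in DSS and 48.1, 51.0 and 137 CPM in RJA, with a log2 fold change of 1.63 ± 0.37 (adjusted p = 0.0994 with edgeR). miR-212-5p stood at 4.91, 4.43 and 2.28 CPM in Normal, 16.4, 9.91 and 10.1 CPM in DSS and 5.06, 6.54 and 10.0 CPM in RJA. Its RJA 1 level was only just above the highest Normal one, and its log2 fold change was 1.32 ± 0.39. All 4 arms of the cluster therefore lay above Normal in all 6 exposed libraries, where 6.00% of all tested miRNAs did. Against Normal alone, DSS gave a median log2 fold change of 2.01 over the 4 arms and RJA gave 1.32; these 2 comparisons share the Normal libraries.

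Among miRNAs of NF-kB feedback, miR-146a-5p, which represses the Toll-like receptor adaptors Irak1 and Traf6, was separate from Normal. It stood at 759, 868 and 750 CPM in Normal, 2407, 1728 and 1559 CPM in DSS and 1323, 1298 and 1334 CPM in RJA. The 3 RJA libraries were close to each other and lay between the Normal and the DSS libraries. For miR-146a-5p the log2 fold change was 1.02 ± 0.23 (adjusted p = 0.0994 with edgeR). Its seed relative miR-146b-5p stood at 537 to 605 CPM in Normal and at 598 to 2161 CPM in exposed libraries, and overlapped because RJA 1 (598 CPM) lay inside the Normal range. miR-155-5p, made by activated macrophages and lymphocytes, stood at 37.8 to 48.8 CPM in Normal and 84.8 to 202 CPM in 5 exposed libraries, while RJA 1 at 30.9 CPM was below Normal. Of the 5 tested members of this list, 3 were higher at an unadjusted p under 0.05 (12.5% of all miRNAs were). In all 6 exposed libraries 1 was above Normal (6.00% of all miRNAs were). The other 2 members, miR-147-3p and miR-147-5p, had a negative log2 fold change.

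The leukocyte lists were uneven. miR-223-3p, the main miRNA of neutrophils, stood at 13.5, 12.4 and 11.7 CPM in Normal, 94.8, 36.6 and 104 CPM in DSS and 15.2, 21.0 and 100 CPM in RJA. All 6 exposed libraries were above Normal, but RJA 1 and RJA 2 were far nearer to it than RJA 3. The log2 fold change of miR-223-3p was 2.31 ± 0.64, and that of its other strand, miR-223-5p, 2.30 ± 0.59, with 1 exposed library (RJA 1, 4.87 CPM) inside the Normal range of 2.11 to 5.06 CPM. Of the 4 tested myeloid and pan-leukocyte miRNAs all 4 had a positive log2 fold change (51.7% of all miRNAs did), and their summed level was 51.0 to 87.2 CPM in Normal and 43.5 to 237 CPM in exposed libraries. miR-150-5p, abundant in mature lymphocytes, stood at 424 to 523 CPM in Normal and 911 to 1776 CPM in 5 exposed libraries, but at 163 CPM in RJA 1. miR-342-5p, also found in lymphocytes, stood at 2.46 to 2.82 CPM in Normal, at 2.44 CPM in RJA 1 and at 4.82 to 11.1 CPM in the other exposed libraries. Of the 8 tested lymphocyte miRNAs 4 were higher and 4 lower in the fit, 0 lay above Normal in all 6 exposed libraries and 1, miR-181d-5p, lay below in all 6 (6.00% and 7.16% of all miRNAs did).

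Some smaller differences were of like size with and without RJA. miR-214-3p, a fibroblast miRNA, stood at 74.6, 64.1 and 57.2 CPM in Normal, 111, 92.8 and 103 CPM in DSS and 76.1, 112 and 116 CPM in RJA. RJA 1 was again the exposed library nearest to Normal, and the log2 fold change of 0.64 ± 0.18 was made up of 0.65 for DSS and 0.64 for RJA. Its other strand miR-214-5p had a log2 fold change of 0.74 ± 0.26. Both were counted in the mesenchyme list, of whose 8 tested members 2 lay above Normal, 2 below and the other 4 overlapped (6.00% and 7.16% of all miRNAs lay above and below). miR-199b-5p was among those below (36.8 to 40.0 CPM in Normal, 17.5 to 34.5 CPM in exposed libraries), but with library totals 0 of the 8 were.

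Some of the further miRNAs above Normal, named here after their values were seen, lie near each other in gene clusters. Others, such as miR-671-5p and miR-455-3p, were the only miRNA of their locus above Normal. miR-134-5p, miR-541-5p and miR-496a-3p lie within 10000 bases of a neighbour in the imprinted Dlk1-Dio3 region of chromosome 12. Counting, here and below, only tested miRNAs with a RefSeq position, they are 3 of 32 of that cluster (6.00% of all miRNAs lay above). The other 29 overlapped Normal, and 6 of the 32 had a negative log2 fold change. On the same chromosome miR-433-3p, which this distance puts in a separate cluster, also lay above Normal (log2 fold change 0.69). It was the only tested miRNA of that cluster to do so, and all the others there overlapped Normal. miR-541-5p stood at 33.0 to 40.5 CPM in Normal and 45.3 to 98.0 CPM in exposed libraries, and miR-134-5p at 15.6 to 18.1 and 21.6 to 47.2 CPM. The log2 fold change was 0.85 ± 0.26 for each of these 2, and 0.89 ± 0.35 for miR-496a-3p. On the X chromosome miR-501-3p (15.3 to 24.9 CPM in Normal, 25.1 to 35 CPM exposed) and miR-532-3p (8.59 to 9.59 and 10.5 to 16.9 CPM) are neighbours and both lay above Normal, while the other 3 tested miRNAs of their cluster overlapped it. miR-455-3p varied little within the exposed groups, with 28.8, 28.9 and 28.2 CPM in DSS and 25.1, 29.4 and 30.1 CPM in RJA, against 19.5, 22.6 and 17.6 CPM in Normal.

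Of the neuronal list, 8 of 9 tested members had a positive log2 fold change (51.7% of all miRNAs did). The median was 0.49, with 0.76 for DSS and 0.17 for RJA. Of the 9, 4 were higher at an unadjusted p under 0.05 (12.5% of all miRNAs were). Among them miR-129-5p and miR-129b-3p had near-identical counts and cannot be told apart, so the 9 are not separate miRNAs. In this list 1 member was separate from Normal (13.2% of all miRNAs were). That was miR-129-1-3p, at 3.09 to 4.23 CPM in Normal, 6.49 to 8.73 CPM in DSS and 4.26 to 4.63 CPM in RJA. The RJA libraries lay barely above the highest Normal library, and the interval of RJA minus DSS (log2 -1.26 to -0.22) left out 0. In the endothelial list, 1 of 8 was separate, a share near the 13.2% of all miRNAs. This was miR-222-3p, at 51.7 to 55.2 CPM in Normal and 55.7 to 72.8 CPM in exposed libraries. The injury miRNAs were not separate from Normal: miR-21a-5p, the most abundant of them, stood at 75455 to 108268 CPM in Normal and 58956 to 128137 CPM in exposed libraries. miR-31-5p, which marks regenerating colon epithelium, stood at 0.153 to 0.537 CPM in Normal and 1.10 to 2.21 CPM in 5 exposed libraries, and had no read in RJA 1, which at 3 counts allows up to 0.562 CPM. miR-135b-5p stood at 0.325 to 0.921 CPM in Normal and 0.562 to 3.55 CPM in exposed libraries. Both miR-31-5p and miR-135b-5p passed the read filter through exposed libraries alone, and the filter by itself favours higher levels there.

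**Figure D2:**
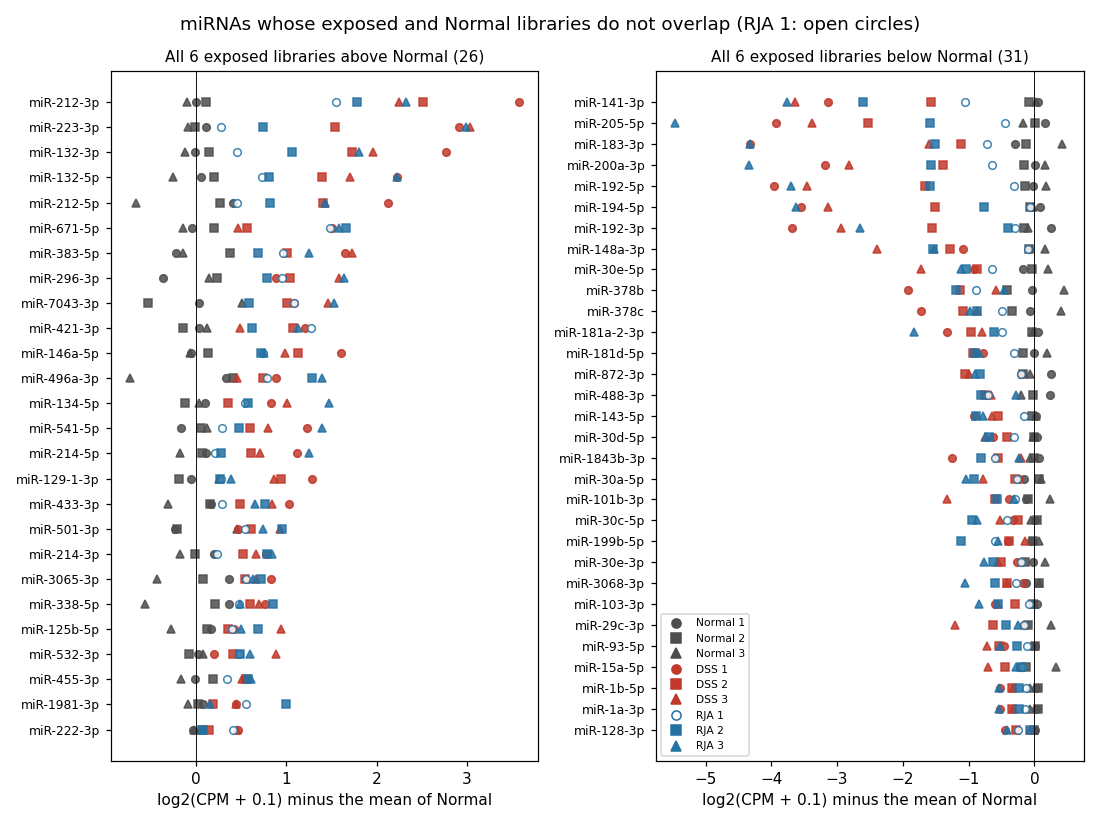
The 57 miRNAs whose exposed and Normal libraries did not overlap, with the 26 above Normal on the left and the 31 below on the right. The horizontal axis is log2(CPM + 0.1) minus the mean of the 3 Normal libraries, and each point is 1 library (RJA 1 as an open circle). RJA 1 is the exposed library nearest to Normal in 11 of the 26 and 21 of the 31.

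Of the miRNAs below Normal, the miR-30 family was alike in both exposed groups. Its members share a seed, are made in many cell types and repress, among other targets, regulators of the mesenchymal state. miR-30e-5p stood at 425, 471 and 557 CPM in Normal, 254, 261 and 146 CPM in DSS and 309, 233 and 222 CPM in RJA, and its log2 fold change was -1.03 ± 0.21 (adjusted p = 0.0994 with edgeR). miR-30d-5p stood at 4412, 4285 and 4245 CPM in Normal, 2798, 3216 and 2548 CPM in DSS and 3474, 2673 and 2583 CPM in RJA, a log2 fold change of -0.58 ± 0.16. In both, the highest exposed library was RJA 1 and it was still clearly below the lowest Normal library.

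Log2 fold changes were -0.56 ± 0.22 for miR-30a-5p, -0.54 ± 0.18 for miR-30c-5p and -0.48 ± 0.17 for miR-30e-3p, and these were also below Normal in all 6 libraries. miR-30b-5p, which has the same family name, stood at 187 to 222 CPM in Normal and 172 to 242 CPM in exposed libraries, a log2 fold change of 0.05 ± 0.15. Over all 12 tested entries with a miR-30 name, 5 were below Normal in all 6 exposed libraries (7.16% of all miRNAs were) and 11 had a negative log2 fold change (48.3% of all did). Their median was -0.41, with -0.42 for DSS and -0.41 for RJA. When library totals replaced TMM, the median over all miRNAs moved from 0.03 to 0.31 and that of the 12 miR-30 entries from -0.41 to -0.13. Then miR-30e-5p and miR-30d-5p stayed below Normal in all 6 libraries and the other 3 overlapped it.

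The largest differences below Normal were those of epithelial miRNAs, and they varied most between exposed libraries. miR-141-3p, which with its seed partner represses the mesenchymal factors Zeb1 and Zeb2, stood at 45.0, 40.8 and 43.7 CPM in Normal, 4.80, 14.5 and 3.36 CPM in DSS and 20.6, 7.0 and 3.09 CPM in RJA. RJA 1 was highest of the exposed libraries and still under the lowest Normal one. Its log2 fold change was -2.29 ± 0.52 (adjusted p = 0.0994 with edgeR), and that of its other strand, miR-141-5p, was -1.17 ± 0.62 with RJA 1 above Normal. miR-200a-3p stood at 7252, 6450 and 8109 CPM in Normal, 798, 2755 and 1029 CPM in DSS and 4636, 2439 and 358 CPM in RJA, a log2 fold change of -1.86 ± 0.60. miR-200b-3p, from the same cluster as miR-200a, overlapped: RJA 1 stood at 22024 CPM against 16595 to 18813 CPM in Normal. All 9 tested arms of the miR-200 family had a negative log2 fold change (48.3% of all miRNAs did), and 2 were below Normal in all 6 libraries (7.16% of all were).

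The intestinal clusters of miR-192, miR-194 and miR-215 behaved alike. miR-192-5p stood at 56422, 51841 and 64891 CPM in Normal, 3690, 18109 and 5257 CPM in DSS and 46388, 19054 and 4430 CPM in RJA. The exposed libraries thus spread from near Normal in RJA 1 to far below it in DSS 1, and the log2 fold change was -1.84 ± 0.69 (adjusted p = 0.167 with edgeR). miR-194-5p, its cluster neighbour, stood at 5576 to 6197 CPM in Normal, at 5525 CPM in RJA 1 and at 472 to 3410 CPM in the other exposed libraries. miR-192-3p was below Normal in all 6 libraries as well, so 3 of the 7 tested arms were (7.16% of all miRNAs were). All 7 had a negative log2 fold change, with a median of -1.47 that was made up of -2.68 for DSS and -0.81 for RJA. Their summed level was 62611 to 77691 CPM in Normal, 4370, 21649 and 6283 CPM in DSS and 59039, 24527 and 5420 CPM in RJA.

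Of other epithelial miRNAs, miR-205-5p, typical of squamous and basal epithelium, stood at 28.0 to 35 CPM in Normal and from 0.617 to 23.0 CPM in exposed libraries, with the top again in RJA 1. miR-183-3p, the scarce strand of a sensory and epithelial miRNA, stood at 1.53 to 2.60 CPM in Normal and 0 to 1.12 CPM in exposed libraries, with no read in DSS 1 and RJA 3 (allowing up to 0.369 and 0.463 CPM). It is the 1 miRNA that passed the read filter through Normal libraries alone, with 10 to 16 reads there and 0 to 6 in exposed ones, and the filter alone favours such a separation. The other 3 tested members of its cluster overlapped. The part of epithelial content in the differences of other miRNAs was not tested.

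In the miR-148, miR-152 and miR-378 families, linked to differentiated epithelium and to energy metabolism, 9 of 10 tested arms had a negative log2 fold change (48.3% of all miRNAs did) and 3 were below Normal in all 6 libraries (7.16% of all). With library totals 1 of these 3, miR-378c, stayed below in all 6, and the median over the 10 arms moved from -0.61 to -0.36. miR-148a-3p, which represses the DNA methyltransferase Dnmt1, stood at 13032, 13037 and 15317 CPM in Normal, 6468, 5674 and 2627 CPM in DSS and 12828, 4745 and 4765 CPM in RJA. RJA 1 was only just under the lowest Normal library. miR-378c stood at 646, 536 and 901 CPM in Normal, 204, 319 and 371 CPM in DSS and 484, 371 and 342 CPM in RJA, a log2 fold change of -0.99 ± 0.25. Log2 fold changes were -1.01 ± 0.31 for miR-378b and -0.76 ± 0.31 for miR-378a-3p, of which only the former was separate from Normal.

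miR-181d-5p belongs to a family that tunes antigen receptor signalling in T cells. It stood at 57.4, 51.4 and 66.0 CPM in Normal, 33.7, 30.3 and 31.0 CPM in DSS and 46.6, 30.9 and 32.3 CPM in RJA. Apart from RJA 1 the exposed libraries were within a narrow band, and the log2 fold change was -0.77 ± 0.18 (adjusted p = 0.0994 with edgeR). miR-181a-2-3p, named after its values were seen, was lower as well, with 13.7 to 14.6 CPM in Normal and 3.86 to 9.93 CPM in exposed libraries. The other strand of its hairpin, miR-181a-5p, overlapped Normal, with a log2 fold change of -0.09. Of the 4 tested miRNAs with the seed of miR-181d-5p, only miR-181d-5p was below Normal in all 6 libraries, so the family as a whole was not separate. Of 11 tested muscle miRNAs, 2 entries were below Normal in all 6 libraries (7.16% of all miRNAs were), miR-143-5p (184 to 192 CPM in Normal, 100 to 169 CPM exposed) and miR-1a-3p (3462 to 3757 and 2514 to 3308 CPM). With library totals miR-1a-3p overlapped. The median log2 fold change of the 11 was -0.13 with TMM and 0.15 with library totals. Of 14 tested miRNAs of the proliferation clusters 1 was below Normal in all 6, which is near the 7.16% of all miRNAs. This was miR-93-5p (301 to 306 CPM in Normal, 184 to 280 CPM exposed), which overlapped with library totals, and this list's median also changed sign, from -0.16 to 0.10 with library totals.

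The hypoxia miRNA miR-210, named in the study's title, was not separate from Normal. miR-210-3p stood at 103, 86.2 and 77.4 CPM in Normal, 10.2, 35.7 and 23.5 CPM in DSS and 124, 77.6 and 27.6 CPM in RJA. All DSS libraries were below Normal, while RJA 1 was above it and RJA 2 at its lower edge. The mean of log2 CPM was 6.47 in Normal and 5.18 in exposed libraries, and an exact two-sided permutation test over the 84 splits gave p = 0.190, where the smallest possible is 0.0238. The same exact test gave p = 0.405 for miR-210-5p. The let-7 and red cell lists held 0 miRNAs separate from Normal of 9 and 4 tested (13.2% of all miRNAs were). Their medians were -0.07 in each and turned to 0.23 and 0.21 with library totals. In the red cell list 3 entries, all of miR-486, had near-identical counts, so its median is that of 1 miRNA. Its other member, miR-451a, had a log2 fold change of -0.76. Of the 4 entries 1 had an unadjusted p under 0.05 with edgeR, lower (10.6% of all miRNAs did).

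Sharing was counted for hairpins and seeds. RefSeq held 364 of the 433 tested miRNAs and 48 of the 57. Among 115 hairpins with both strands tested, the 2 log2 fold changes had the same sign in 86 (74.8%). Of the 28 of these with at least 1 strand among the 57, the signs were the same in 25 (89.3%), and in 5 both strands were among the 57: miR-132, miR-212, miR-214, miR-192 and miR-30e. Of 38 seeds shared by at least 2 tested miRNAs, 3 had 2 or more members among the 57 in 1 direction. These are the seeds printed above for miR-212-3p with miR-132-3p, for miR-141-3p with miR-200a-3p, and for the 3 miR-30 strands. miR-30b-5p and miR-30d-5p had no RefSeq entry and are left out of the seed counts. Of these, miR-30d-5p lay below Normal in every exposed library and miR-30b-5p overlapped it. Strands of a hairpin and members of a cluster come from 1 transcript and are not independent of each other.

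The DSS and RJA groups were then set side by side in a fit with 3 group means. DSS against Normal gave 10 miRNAs that were called higher (2.31%) and 7 lower (1.62%), 3.93% in all. Of the 17, 9 were among the 57 (13.2% of all miRNAs were), which use the same DSS and Normal libraries. DESeq2 called 62 and limma-voom 34 in that comparison, and leaving out 1 library gave 3 to 80 with edgeR (3 without Normal 1 or Normal 3, 80 without RJA 3). RJA against Normal gave 0 (0%) with edgeR, 63 at an unadjusted p under 0.05, 9 with DESeq2 and 0 with limma-voom. Over the 26 miRNAs above Normal the median log2 fold change was 0.86 for DSS and 0.77 for RJA, and over the 31 below it was -0.72 and -0.67. The 95% interval of RJA minus DSS spanned 0 in 22 of the 26 and 30 of the 31, and 0 of the 57 were called different between the exposed groups, where 0.462% of all miRNAs were.

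The intervals show how far the exposed groups could still differ. For miR-30d-5p RJA minus DSS was 0.03 on the log2 scale (95% interval -0.37 to 0.42), for miR-214-3p -0.01 (-0.47 to 0.44) and for miR-455-3p -0.02 (-0.42 to 0.37). For these 3 a difference beyond 0.47 in either direction lay outside the interval. For miR-192-5p it was 1.37 (-0.32 to 3.06) and for miR-205-5p 1.72 (-0.11 to 3.56), so that large differences remained possible. The interval left out 0 for miR-212-3p (-0.98, from -1.77 to -0.18), miR-132-3p (-1.01, from -1.81 to -0.21), miR-146a-5p (-0.53, from -0.95 to -0.10) and miR-129-1-3p, lower with RJA in each, and for miR-192-3p (1.69, from 0.28 to 3.09), higher with RJA. These intervals are for single miRNAs and are not adjusted for their number.

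The RJA mean was nearer to Normal than the DSS mean in 20 of the 26 (76.9%) and 26 of the 31 (83.9%). Among all miRNAs with a positive log2 fold change the RJA mean was below the DSS mean in 141 of 224 (62.9%), and among those with a negative one above it in 145 of 209 (69.4%). With RJA 1 left out of the RJA mean the counts were 15 of 26 (57.7%) and 16 of 31 (51.6%). The shares of all miRNAs were then 55.4% and 60.8%, so the 26 and the 31 no longer stood clearly above them. This count was not made with another library left out.

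**Figure D3:**
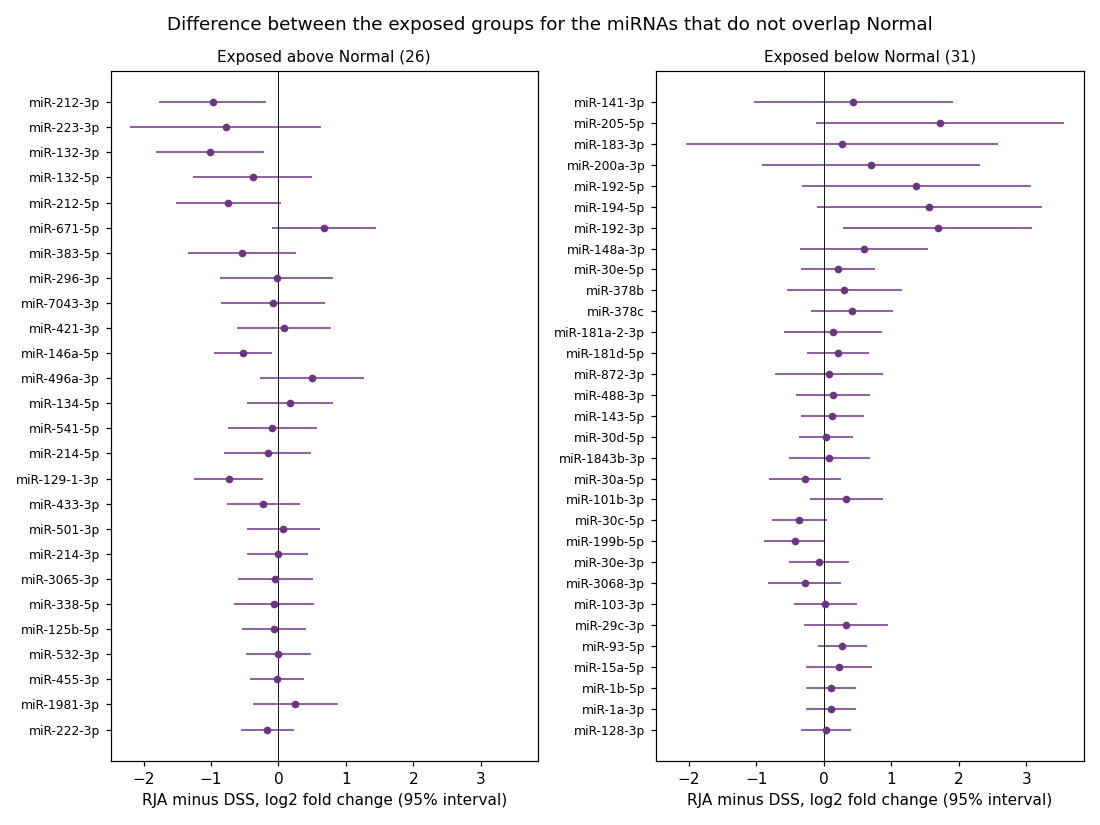
RJA minus DSS (log2, with its 95% interval) for the 26 miRNAs above Normal on the left and the 31 below on the right, in the order of their exposed over Normal difference. The intervals of miR-30d-5p and miR-214-3p are narrow and centred near 0, while those of the epithelial miR-192-5p and miR-205-5p reach beyond 3.

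When the 3-mean fit was asked for the average of DSS and RJA against Normal, which sets aside the difference between the exposed groups, 3 miRNAs passed as higher and 3 as lower (0.693% each). miR-212-3p (log2 fold change 2.45 ± 0.37, adjusted p = 0.0230 with edgeR), miR-146a-5p (1.00 ± 0.17, adjusted p = 0.0230) and miR-132-3p (1.72 ± 0.34, adjusted p = 0.0417) rose. miR-30e-5p fell by 1.03 ± 0.21 (adjusted p = 0.0420) and was also separate from Normal. The other two that fell in this fit, miR-148a-5p and miR-194-1-3p, were low mainly in DSS. miR-194-1-3p stood at 23.1 to 28.6 CPM in Normal, 0.246 to 1.93 CPM in DSS and 6.79 to 24.9 CPM in RJA. miR-148a-5p stood at 85.8 to 105 CPM in Normal, 18.5 to 28.8 CPM in DSS and 43.7 to 89.5 CPM in RJA.

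The calls depended on RJA 1. Without it, edgeR called 20 miRNAs higher and 21 lower, 41 of the 433 tested. miR-212-3p, miR-132-3p, miR-146a-5p, miR-223-3p, miR-150-5p and miR-155-5p were among the higher and miR-141-3p, miR-192-5p, miR-148a-3p, miR-30e-5p, miR-30d-5p and miR-181d-5p among the lower. Of DESeq2's 19 calls on all 9 libraries, 18 were among these 41. Both sets of calls use the same libraries apart from RJA 1, so their overlap is not separate evidence. Without DSS 1, 1 miRNA was called higher and 0 lower. With any of the other 7 libraries left out, edgeR called 0 in each direction. In 100 miRNAs (23.1%) exactly 5 of the 6 exposed libraries lay beyond Normal, and the library inside was RJA 1 in 66 of them and each of the others in 6 to 8. Without RJA 1, the number of miRNAs in which all remaining exposed libraries lay beyond Normal was 123, with 56 above and 67 below. Fewer libraries separate more easily, and with any other library left out the number was 62 to 83, against 57 with all 9.

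**Figure D4:**
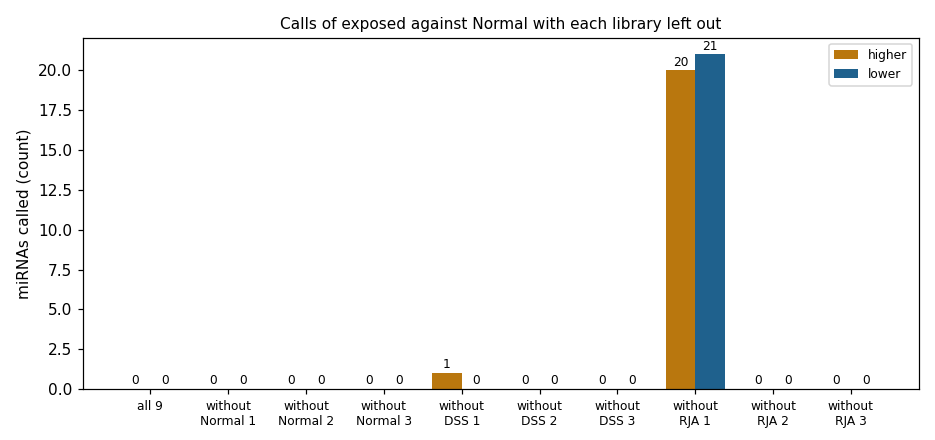
Number of miRNAs called higher and lower in exposed against Normal colon (edgeR, adjusted p under 0.05) with all 9 libraries and with each library left out. Calls appear without RJA 1 (20 higher, 21 lower) and without DSS 1 (1 higher), and the other bars are at 0.

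The scaling decided the balance of higher and lower. With library totals in place of TMM, 64 miRNAs did not overlap, 51 above and 13 below Normal. TMM factors were 0.867 to 0.899 in Normal, 0.892 in RJA 1 and 1.05 to 1.18 in the other 5 exposed libraries. Library totals therefore raise those 5 against Normal, so the change could hardly undo a separation above Normal and checks only those below. All 26 of those above Normal with TMM were also above it with library totals, and 13 of the 31 below were also below. Among the miRNAs above, miR-212-3p, miR-132-5p, miR-146a-5p, miR-223-3p and miR-214-3p were thus separate from Normal under both, and among those below, miR-141-3p, miR-200a-3p, miR-192-5p, miR-30e-5p, miR-30d-5p and miR-181d-5p were.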

How the data were processed

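Small RNA libraries of 18 to 40 base inserts were made from colon RNA with a NEBNext kit and sequenced single-end, per the labels' protocols. Bowtie and DESeq are listed, with no version, in the submitters' processing notes. The genome build was not given. The authors deposited raw counts per miRNA and a TPM column for each library. The deposited TPM equals the same table's counts scaled to 1e+06 (largest difference 4.66e-10) and was used for that check alone. Tests used the counts in R 4.3.3 with edgeR 4.0.16 (quasi-likelihood, TMM), with 2 means (exposed, Normal) or 3 (Normal, DSS, RJA), Benjamini-Hochberg adjustment over 433 miRNAs and a threshold of 0.05. DESeq2 1.42.0 and limma 3.58.1 (voom) were alternatives. SE was the log2 fold change over the square root of F. Of the 29 entries numbered by the authors, 1 passed the filter, and it was left out of the tests. The code was tested on simulated data. The miRNAs with the smallest p in each direction, up to 4 members of each list by p and abundance, and miR-210 were named by rule, others after their values were seen. The comparison, its members and the lists were chosen with earlier results of these data known. PCR reads without molecular identifiers are not independent molecules. In 12 sets, 25 miRNAs had near-identical counts (within 2%), such as miR-1a-3p and miR-1b-5p, and cannot be told apart.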

Additional observations from a re-analysis of the deposited data

Results flagged for a closer look

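This check covered 54 of the miRNAs named with values (not miR-433-3p and miR-451a). In 4 of the 54, 1 exposed library stood apart from the other 5, and it was RJA 1 each time. Chance flags about 1 in 20 groups. The gap to the nearest library, as a share of the range of the 6, was 0.807 for miR-31-5p (no read in RJA 1), 0.753 for miR-181d-5p, 0.721 for miR-150-5p and 0.640 for miR-455-3p, where the critical value is 0.625.

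The exposed groups differed from each other in 2 miRNAs by edgeR's test of RJA against DSS (0.462% of 433). RJA minus DSS was 3.88 on the log2 scale for miR-194-1-3p (95% interval 2.52 to 5.24, adjusted p = 0.0368 with edgeR), with 2, 14 and 13 reads in DSS and 133, 145 and 44 in RJA. It was 2.80 for miR-200c-5p (1.69 to 3.90, adjusted p = 0.0486 with edgeR), with 3, 4 and 1 reads in DSS and 16, 14 and 14 in RJA. Neither marks exposure in both groups.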

How the results depend on the processing

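For exposed against Normal, edgeR called 12 higher and 9 lower with every row of at least 1 read, DESeq2 12 and 7, and the average of DSS and RJA in 3 group means 3 and 3. With each library left out the ranges were 0 to 20 higher and 0 to 21 lower. All other settings tried gave 0 and 0. The count of groups that do not overlap was 62 to 123 with each library left out, the top without RJA 1.

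DSS against Normal (17 calls) gave 73 with library totals, 74 with every row of at least 1 read, 62 with DESeq2, 34 with limma-voom, 93 from the 2 groups alone and 3 to 80 with each library left out (80 without RJA 3, 3 without Normal 1 or Normal 3). RJA against DSS (2 calls) gave 1 with library totals or with 1 entry of each near-identical set, 40 with every row of at least 1 read, 14 with DESeq2, 0 with 10 reads in all 9 libraries, limma-voom or the 2 groups alone, and 0 to 39 with each library left out (39 without RJA 3). RJA against Normal (0 calls) gave 20, 9, 2 and 1 with every row of at least 1 read, DESeq2, the 2 groups alone and robust dispersion, and 0 to 1 with each library left out. The cause of these shifts was not tested.

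Of the log2 fold changes of the same 54 named miRNAs, 1 changed sign under the alternatives, miR-30b-5p at -0.022 without Normal 1. Its range with each library left out was -0.022 to 0.13. Replicate numbers did not pair the samples: same-numbered libraries had correlations of -0.41 to 0.16. With a replicate block, exposed against Normal gave 0 and 0 calls, DSS against Normal 3, RJA against DSS 0 and RJA against Normal 0. With 3 samples a group and some levels under 5 CPM, as for miR-31-5p and miR-183-3p, smaller differences were not detectable.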
